A study of Mus musculus with 6 samples.

Results

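A set of 10 checkpoint genes was followed in leukemia-initiating cells (LICs): the 7 cyclin-dependent kinase (CDK) inhibitor genes Cdkn1a, Cdkn1b, Cdkn1c, Cdkn2a, Cdkn2b, Cdkn2c and Cdkn2d, together with Trp53, Mdm2 and Ccng1. They were taken by gene symbol, and all 10 were among the 27179 genes of the deposited table. Mouse bone marrow had been sorted for YFP+Mac-1+c-Kit+ LICs, whose RNA was sequenced in 6 libraries, 3 labelled Asic3-null (Asic3-/-) and 3 labelled WT (Asic3+/+), all of strain C57BL/6 and given as 8 weeks of age. Asic3 encodes an acid-sensing ion channel. According to the study's methods, both genotypes carried the same retroviral MLL-AF9-IRES-YFP oncogene, introduced into Lin- fetal liver cells that were then transplanted into irradiated recipients of that strain, so every library came from leukemic cells and none from normal marrow. The paper states at least 3 biological repeats as its general rule and gives n = 3 for the RNA sequencing. The sources used here do not say whether the libraries came from separate mice, and p-values therefore measure only the spread between these samples. The comparison asked whether genes that hold cells out of the cycle, and Cdkn2a as a target of the Polycomb protein Bmi1, had other mRNA levels in the Asic3-null-labelled libraries.

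CDK inhibitors brake the cell cycle in G1. The INK4 proteins, encoded by Cdkn2a to Cdkn2d, bind CDK4 and CDK6 and keep D-type cyclins from activating them, whereas the Cip/Kip proteins p21 (Cdkn1a), p27 (Cdkn1b) and p57 (Cdkn1c) bind a wider range of cyclin-CDK complexes and are known for keeping hematopoietic stem cells quiescent. Cdkn2a also encodes p19Arf, which holds back Mdm2, the ubiquitin ligase that degrades p53 (Trp53), and Cdkn1a, Mdm2 and Ccng1 are classical transcriptional targets of p53.

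The libraries ran from 1947168 to 2381861 reads, as inferred from the deposited values, and are shallow for genes of low level. Values are RPKM, reads per kilobase of gene and scaled to the reads of the library, so levels of different genes are compared per length. Asic3 itself ran against the labels. It stood at 9.12, 4.11 and 6.58 RPKM (41, 19 and 30 reads) in the Asic3-null-labelled libraries and at 1.22, 1.85 and 0.435 RPKM (5, 7 and 2 reads) in those labelled WT, with a log2 difference of 1.81 (limma adjusted p = 0.0260). The table holds 1 value per gene and cannot show whether these reads lie in the deleted part. Xist, the RNA of the inactive X chromosome, was at 46.5 to 71.9 RPKM in the Asic3-null-labelled libraries and at no more than 0.0573 RPKM in those labelled WT, so that genotype label and sex cannot be told apart in any result given here.

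All 8 LIC markers were detected, including Kit and Itgam, the latter encoding a chain of Mac-1. Of the 8, limma called 1 lower and 1 higher, with 5 below 0 and 3 above. Itgam was lower in the Asic3-null-labelled libraries, at 12.9, 12.3 and 16.9 RPKM against 89.5, 85.7 and 55.1 RPKM in those labelled WT (adjusted p = 0.00072). Meis1, a homeobox gene of the MLL-AF9 program, was higher, at 21.7, 28.2 and 35.3 against 14.2, 14.9 and 14.0 RPKM (adjusted p = 0.0367). Hoxa9, a homeobox gene of the same program, was at 67.1, 42.3 and 48.9 against 73.5, 73.5 and 87.8 RPKM, without overlap (log2 difference -0.58, adjusted p = 0.151). Kit was at 14.4, 17.9 and 20.4 against 9.09, 15.3 and 8.97 RPKM, with overlap (adjusted p = 0.219). The summed level of 14 neutrophil granule genes was 3834.7 to 5093.4 RPKM against 8172.7 to 10144.2 RPKM, with 11 of the 14 lower by the test and a median log2 difference of -2.56 (from -5.39 to 0.43), and that of 8 macrophage genes was 165.4 to 196.1 against 281.4 to 323.1 RPKM, with 2 lower by the test. The erythroid sum was 0.972 to 2.41 against 3.07 to 10.8 RPKM, the T cell sum 1.40 to 2.10 against 0.456 to 1.28 RPKM with Cd3e, Cd4 and Cd8a at 0, and the B cell sum 37.3 to 47.6 against 42.0 to 50.0 RPKM with Ms4a1 at 0 in all 6 libraries.

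Promoter sequences are shown for 3 of the genes, Cdkn2a for its separate starts and Ccng1 and Cdkn1a as examples of p53 targets, with exons annotated in GENCODE M21 left out. RefSeq (GRCm38.p6) windows were at hand for 9 of the 10 genes, 12 in all. The set of windows used here held none for Cdkn1c, although that gene has an annotated locus. Cdkn2a has a pair of annotated starts 12427 bases apart. The first stretch below lies before the upstream start, used by p19Arf, and the second before the downstream start, used by p16Ink4a, which is inside the gene. Capitals mark the GC box GGGCGG on either strand.
Cdkn2a upstream start, chr4:89294654-89294803, minus strand: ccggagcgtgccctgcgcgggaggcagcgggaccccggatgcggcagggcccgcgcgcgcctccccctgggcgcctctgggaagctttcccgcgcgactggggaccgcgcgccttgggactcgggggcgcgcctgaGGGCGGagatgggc
Cdkn2a downstream start, chr4:89282193-89282342, minus strand: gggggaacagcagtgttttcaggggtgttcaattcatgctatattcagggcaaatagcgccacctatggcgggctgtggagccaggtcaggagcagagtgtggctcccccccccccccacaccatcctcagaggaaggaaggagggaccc
The 250 bases before the upstream Cdkn2a start held 40 CpG dinucleotides at 78.4% GC, and those before the downstream start 7 at 60.0% GC, where the median of all 32851 windows was 6 CpG at 52.4% GC. Cdkn2d held 3 GC boxes before its RefSeq start, an element found in 32.74% of all windows, in a stretch that other annotated transcripts include and that is not shown.

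For the p53 targets Ccng1 and Cdkn1a, capitals mark matches to the p53 half-site.
Ccng1, chr11:40755432-40755501, minus strand: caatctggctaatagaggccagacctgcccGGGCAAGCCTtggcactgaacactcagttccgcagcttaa
Cdkn1a upstream start, chr17:29090876-29090967, plus strand: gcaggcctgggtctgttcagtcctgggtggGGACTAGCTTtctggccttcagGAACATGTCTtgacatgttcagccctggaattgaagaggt
A half-site was found in 7.13% of all windows, and in those of Cdkn2d, Mdm2, Ccng1, Trp53 and the upstream start of Cdkn1a. A pair of half-sites separated by at most 13 bases was found in 21 windows (0.06%), of which the upstream Cdkn1a start was one. The E2F letters TTTCCCGC, TTTGGCGC, TTTCGCGC or TTTGCCGC, on either strand, were found in 1.86% of windows and among the members only before the upstream Cdkn2a start. The letters TTTGAA, searched on both strands as the cell cycle homology region, were found in 15.99% of windows and among the members only in that of Cdkn2b. These are matches of letters and not measured binding.

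Of the 10 genes, 9 passed the filter of a mean of at least 1 RPKM and were tested with limma on log2(RPKM + 1). Cdkn2d was the 1 gene called after Benjamini-Hochberg adjustment over all tested genes, and it was lower in the Asic3-null-labelled libraries. Among all 12037 tested genes, 2.82% were called lower and 0.523% higher. At an unadjusted p under 0.05, Cdkn2d, Cdkn1c and Cdkn2a (3 of 9) were lower and no member was higher, where 9.45% of all tested genes were lower and 6.43% higher. The groups did not overlap, with the Asic3-null-labelled libraries lower, for Cdkn2d, Cdkn1c and Ccng1 (3 of 9), where 11.4% of all tested genes were so separated downward and 11.2% upward. The fitted log2 difference was below 0 for 8 of the 9, with a median of -0.29 beside 0.03 over all tested genes.

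**Figure D1:**
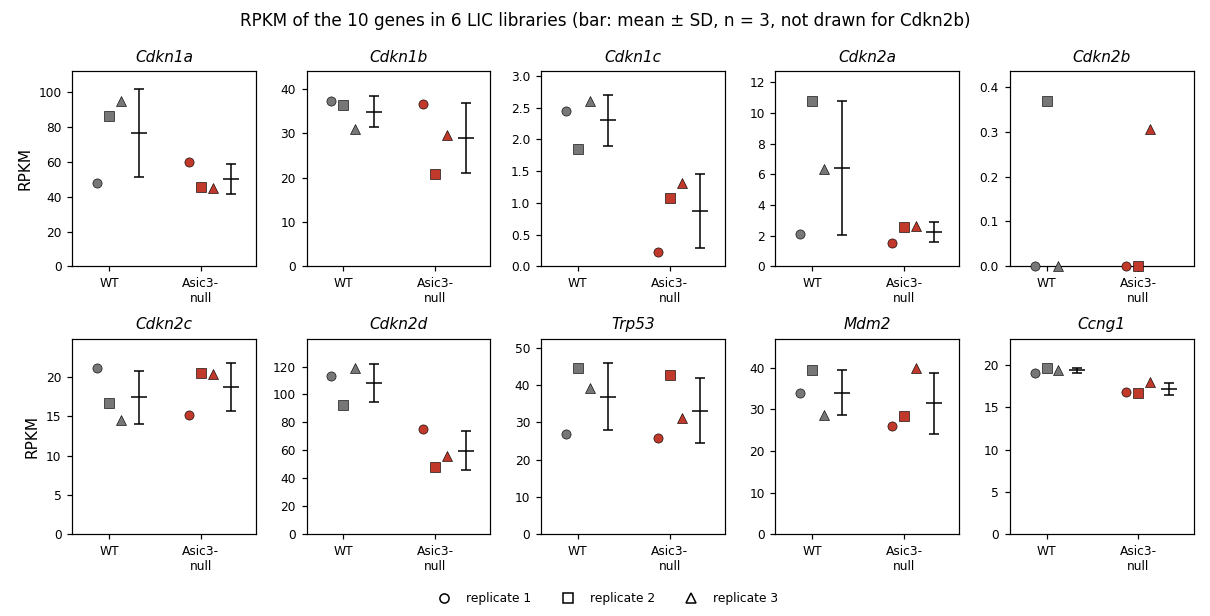
RPKM of each of the 10 genes in the 6 LIC libraries, with its own linear axis from 0 in each panel. Symbols give the replicate number, grey the libraries labelled WT and red those labelled Asic3-null, and bars the mean ± SD (n = 3), not drawn for Cdkn2b. Cdkn2d, Cdkn1c and Ccng1 show no overlap between the groups, and replicate 1 lies lowest of the WT libraries for Cdkn1a, Cdkn2a and Trp53.

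By mean RPKM over the 6 libraries the order was Cdkn2d (84.0), Cdkn1a (63.3), Trp53 (35.1), Mdm2 (32.7), Cdkn1b (32.0), Ccng1 (18.3), Cdkn2c (18.1), Cdkn2a (4.33), Cdkn1c (1.59) and Cdkn2b (0.112). Ranges over the libraries overlapped between Cdkn2d and Cdkn1a, among Trp53, Mdm2 and Cdkn1b, between Cdkn2c and both Ccng1 and Cdkn1b, between Cdkn2a and Cdkn1c, and between Cdkn1c and Cdkn2b. No library of Cdkn1a was as low as the highest of Trp53, and no library of Cdkn2c as low as the highest of Cdkn2a.

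Cdkn2d encodes p19Ink4d, an inhibitor of CDK4 and CDK6 that is distinct from p19Arf. The gene (Entrez 12581, chr9:21288459-21291421, GRCm38) stood at 75.4, 48.2 and 56.0 RPKM in the Asic3-null-labelled libraries and at 113.0, 92.5 and 118.6 RPKM in those labelled WT. Every Asic3-null-labelled library was below every library labelled WT. The means were 59.9 ± 14.0 and 108.1 ± 13.7 RPKM (SD, n = 3), a ratio of 0.554, resting on 535 and 888 reads. The log2 difference was -0.86 with an SE of 0.18 and a 95% interval of -1.27 to -0.45 (limma adjusted p = 0.0395, lower in 3 of 3 libraries). The call was kept in 7 of 14 alternative settings, with adjusted p from 0.0173 to 0.138, and was lost when any single library other than Asic3-null replicate 1 was left out. The granule and macrophage sums given above moved in the same direction across the groups, and their part in this result was not tested. In sorted bulk RNA, fewer cells that express a gene and less of its RNA per cell cannot be told apart.

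Cdkn2a (Entrez 12578, chr4:89274473-89294619) was covered by 4, 7 and 7 reads in the Asic3-null-labelled libraries and by 5, 24 and 17 reads in those labelled WT. The table gives 1 value for both of its products, so p16Ink4a and p19Arf cannot be told apart. Its level was 1.52, 2.59 and 2.62 RPKM against 2.09, 10.8 and 6.32 RPKM. WT replicate 1 lay within the range of the Asic3-null-labelled libraries, and the other WT libraries lay above it. The exact 95% Poisson intervals, which cover counting error only, were 0.680 to 4.88 RPKM for WT replicate 1, 6.95 to 16.1 for WT replicate 2 and 3.68 to 10.1 for WT replicate 3. The means were 2.24 ± 0.627 and 6.42 ± 4.38 RPKM (SD, n = 3), a ratio of 0.349. The log2 difference was -1.01 with an SE of 0.45 and a 95% interval of -2.02 to -0.0002, and did not pass the test (limma adjusted p = 0.315). Its unadjusted p was just under 0.05. With all 6 libraries kept, the alternatives gave 0.0162 (replicate block) to 0.0945 (quantile normalization). Without WT replicate 1 the log2 difference was -1.54 (adjusted p = 0.0607), and without WT replicate 2 it was -0.57.

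Bmi1, the Polycomb repressor of Cdkn2a, was measured in the same libraries. It stood at 19.8, 18.1 and 18.8 RPKM with the Asic3-null label and at 11.2, 12.4 and 13.4 RPKM with the WT label, with no overlap between the groups. The means were 18.9 ± 0.864 and 12.4 ± 1.08 RPKM (SD, n = 3), and the log2 difference of 0.58 with an SE of 0.15 did not pass the threshold (limma adjusted p = 0.0848, and 0.0549 to 0.232 over the 14 alternatives). WT replicate 1 had the lowest Bmi1 value of the 6 libraries and also the lowest Cdkn2a value among the WT libraries, the latter on 5 reads. A relation between these genes was not tested. Of the 28 genes listed as regulators of Cdkn2a, its neighbour Mtap among them, 25 were tested and none was called by limma, with 3 higher and 1 lower at an unadjusted p under 0.05. Beside Bmi1 these were led by Jund, a repressor of Cdkn2a transcription, at 435.2, 692.6 and 484.1 against 336.6, 290.2 and 347.8 RPKM (log2 difference 0.70, adjusted p = 0.0751, and called in 2 of 14 alternatives, quantile normalization and limma-voom). Ezh2, the methyltransferase of Polycomb complex 2, was at 32.1, 50.8 and 40.9 against 24.8, 29.8 and 32.9 RPKM (log2 difference 0.47, adjusted p = 0.278). The 1 lower gene was Cbx7, at 11.8, 8.13 and 11.2 against 23.2, 15.1 and 11.7 RPKM, with overlap (log2 difference -0.60, adjusted p = 0.298).

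Cdkn2b, which encodes p15Ink4b and lies beside Cdkn2a (Entrez 12579, chr4:89306289-89311032), was near the floor of the assay. A single read was counted in Asic3-null replicate 3 (0.306 RPKM) and another in WT replicate 2 (0.369 RPKM), and the other 4 libraries had none. With a floor of 3 reads, a count of 0 allows 0.904 to 1.02 RPKM in those 4 libraries (the exact two-sided 95% Poisson interval used for Cdkn2a would end at 1.11 to 1.26 RPKM), so no difference was detectable at this depth. On the other side of Cdkn2a, Mtap, an enzyme of methionine salvage, was at 9.19 ± 2.46 against 8.70 ± 2.19 RPKM (SD, n = 3, with overlap and log2 difference 0.07, limma adjusted p = 0.921).

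Cdkn2c, which encodes p18Ink4c (Entrez 12580, chr4:109660876-109666756), was the only tested inhibitor with a log2 difference above 0. It was at 15.2, 20.5 and 20.4 RPKM in the Asic3-null-labelled libraries and at 21.1, 16.7 and 14.5 RPKM in those labelled WT. The groups overlapped, and the highest value of all belonged to a WT library. The log2 difference was 0.10 with a 95% interval of -0.33 to 0.53 (limma adjusted p = 0.843), and without WT replicate 3 it was -0.02.

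Summed per library, the 4 INK4 genes came to 92.2, 71.3 and 79.3 RPKM with the Asic3-null label and to 136.2, 120.5 and 139.5 RPKM with the WT label, without overlap. Cdkn2d made up 67.6 to 85.1% of this sum in the 6 libraries, so the sum largely repeats that gene. Cdkn2c made up 16.5, 28.7 and 25.7% against 15.5, 13.9 and 10.4%, although its own level overlapped between the groups, as given above. The 3 Cip/Kip genes summed to 96.8, 67.4 and 75.7 RPKM against 87.5, 124.8 and 128.8 RPKM, with overlap. All 7 inhibitors together came to 160.9 ± 25.6 against 245.7 ± 22.3 RPKM (SD, n = 3).

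**Figure D2:**
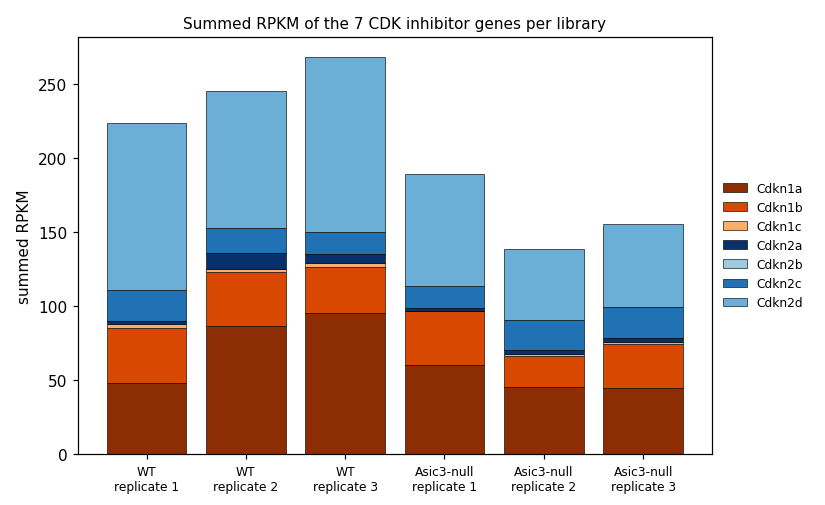
Summed RPKM of the CDK inhibitor genes in each of the 6 libraries, stacked by gene, on a linear axis from 0. Cdkn2d and Cdkn1a make up most of each bar, and the sum of all 7 was 138.7 to 188.9 RPKM in the Asic3-null-labelled libraries and 223.6 to 268.3 RPKM in those labelled WT.

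Cdkn1a, which encodes p21 (Entrez 12575, chr17:29090979-29100722), spread 2.00-fold from lowest to highest within the WT label. It was at 59.9, 45.4 and 44.8 RPKM in the Asic3-null-labelled libraries and at 47.7, 86.7 and 95.3 RPKM in those labelled WT. WT replicate 1 again lay among the Asic3-null-labelled libraries. The variance of its WT reads was 36.61 times that of counting error, against 6.94 times in the Asic3-null-labelled libraries. The log2 difference was -0.56 with an SE of 0.25 and a 95% interval of -1.13 to 0.02, and was not called (limma adjusted p = 0.328). Without WT replicate 1 it was -0.86 (adjusted p = 0.0563), and without WT replicate 3 it was -0.37 (adjusted p = 0.531).

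Cdkn1b encodes p27, whose protein level is set largely by degradation (Entrez 12576, chr6:134920401-134925525). Its mRNA was at 36.6, 20.9 and 29.6 RPKM with the Asic3-null label and at 37.4, 36.3 and 30.9 RPKM with the WT label. The groups overlapped, since Asic3-null replicate 1 was above 2 of the WT libraries. The log2 difference of -0.29 had a 95% interval of -0.75 to 0.18 (limma adjusted p = 0.537), and was -0.46 without Asic3-null replicate 1 and -0.08 without Asic3-null replicate 2. Of 10 genes of p27 turnover, all tested, none was called and 2 were higher at an unadjusted p under 0.05. Cks1b, the cofactor with which Skp2 recognizes p27, was at 123.8, 138.7 and 105.8 against 77.3, 89.6 and 103.2 RPKM (log2 difference 0.44, adjusted p = 0.201), while Skp2 itself was at 4.11, 4.40 and 4.40 against 2.99, 3.07 and 3.75 RPKM (log2 difference 0.32, adjusted p = 0.494). Cul1, the scaffold of that ligase, had a log2 difference of 0.34 (adjusted p = 0.218).

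Cdkn1c, which encodes p57 and is an imprinted gene (Entrez 12577, chr7:143458339-143461059), was measured on few reads. It had 1, 5 and 6 reads in the Asic3-null-labelled libraries and 10, 7 and 12 reads in those labelled WT, or 0.222, 1.08 and 1.32 against 2.45, 1.85 and 2.61 RPKM. The groups did not overlap, by a margin of 1 read between Asic3-null replicate 3 and WT replicate 2. The means were 0.873 ± 0.576 and 2.30 ± 0.400 RPKM (SD, n = 3), a ratio of 0.379. The log2 difference was -0.86 with an SE of 0.32 (limma adjusted p = 0.236), between -1.55 and -0.58 over 13 alternatives, none of which called it. The exact permutation test of the means gave a two-sided p of 0.10, the smallest that 3 against 3 allows.

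Trp53 (Entrez 22059, chr11:69580348-69591873) was at 25.66, 42.70 and 31.23 RPKM with the Asic3-null label and at 26.99, 44.54 and 39.35 RPKM with the WT label. The libraries of both groups spanned nearly the same range. The log2 difference of -0.15 had a 95% interval of -0.68 to 0.38 (limma adjusted p = 0.798) and turned to 0.01 without Asic3-null replicate 1, while it was -0.36 without WT replicate 1. Mdm2 (Entrez 17246, chr10:117688875-117710758) was at 26.1, 28.3 and 39.8 against 33.8, 39.5 and 28.7 RPKM, again with overlap. Its log2 difference of -0.12 had a 95% interval of -0.56 to 0.31 (adjusted p = 0.801), and single libraries left out moved it between -0.30 (Asic3-null replicate 3) and -0.01 (Asic3-null replicate 1 or WT replicate 2). For both genes the interval still includes differences of more than 0.5 on the log2 scale toward lower values.

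Ccng1, which encodes cyclin G1 (Entrez 12450, chr11:40748552-40755309), had the lowest coefficient of variation of the members in both groups (3.92% and 1.28%). It was at 16.8, 16.7 and 18.0 RPKM with the Asic3-null label and at 19.1, 19.6 and 19.4 RPKM with the WT label. The groups did not overlap, with means of 17.2 ± 0.673 and 19.4 ± 0.248 RPKM (SD, n = 3). The scatter within each group was below counting error, at 0.22 and 0.02 of the Poisson variance. The log2 difference of -0.16 with an SE of 0.14 was not called (limma adjusted p = 0.606), and the exact permutation test gave a two-sided p of 0.10, the smallest possible here.

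**Figure D3:**
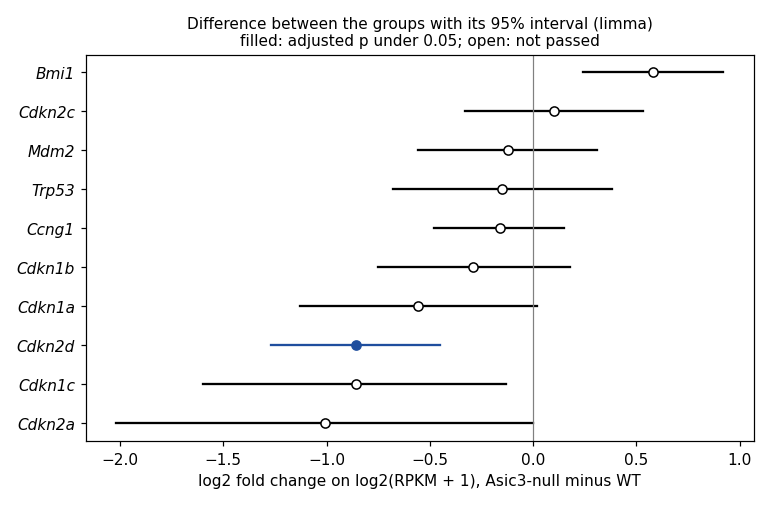
Log2 difference, Asic3-null-labelled libraries minus WT, of the 9 tested members with its 95% interval from limma on log2(RPKM + 1), filled where called. Among the 9 members, Cdkn2d at -0.86 is the 1 called gene, and Cdkn2c at 0.10 the 1 above 0. Bmi1, which is not a member, was at 0.58 (95% interval 0.24 to 0.92) and was not called.

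By Pearson correlation of log2(RPKM + 1) over the 6 libraries, the genes whose levels were most like those of Cdkn2d were Epha2 (r = 0.997), Mboat7 (r = 0.992) and Naa60 (r = 0.991), and those most like Cdkn1c were Sgsh (r = 0.996), Cyb561a3 (r = 0.990) and Ppm1h (r = 0.987). These values describe the closest of 12037 genes, over libraries that share the group difference.

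Among 38 p53 target genes, Cdkn1a, Mdm2 and Ccng1 included, 35 were tested and limma called none, with 6 lower and 2 higher at an unadjusted p under 0.05. Their median log2 difference was -0.08, with 22 below 0 and 13 above. Trp53inp1, a p53-induced nuclear protein, was at 3.42, 1.24 and 3.69 against 10.4, 14.0 and 5.76 RPKM (log2 difference -1.55, adjusted p = 0.0616). Aen, an exonuclease of p53-dependent apoptosis, was at 8.54, 11.7 and 8.91 against 16.6, 14.3 and 18.2 RPKM (log2 difference -0.70, adjusted p = 0.0851). Btg2, an antiproliferative gene, was at 33.5, 31.5 and 47.8 against 48.1, 81.8 and 77.4 RPKM (log2 difference -0.85, adjusted p = 0.103). In each of these the groups did not overlap, and none passed the adjusted threshold, although Trp53inp1 was called with limma-voom and without WT replicate 3, and Btg2 with limma-voom and without WT replicate 1. Of 26 p53 regulators, 24 were tested and none was called, with 1 higher and 0 lower at an unadjusted p under 0.05. It was Npm1, a nucleolar protein that binds p19Arf, at 214.9, 237.0 and 178.0 against 140.1, 167.4 and 175.6 RPKM (log2 difference 0.38, adjusted p = 0.252), followed by Rpl5 (0.29, adjusted p = 0.427) and Pml (0.39, adjusted p = 0.463).

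Of 21 cyclins, CDKs and their regulators, 20 were tested and Ccnd3 was called lower. Ccnd3, the D-type cyclin that activates CDK4 and CDK6, stood at 71.8, 68.5 and 65.7 RPKM with the Asic3-null label and at 118.8, 92.9 and 110.8 RPKM with the WT label. Its groups did not overlap (log2 difference -0.63, SE 0.13, limma adjusted p = 0.0373), and the call was kept in 6 of 14 alternatives and lost when any single library other than WT replicate 2 was left out. Within the same list Cdk1, the mitotic kinase, was at 57.1, 49.0 and 56.4 against 29.9, 40.2 and 41.5 RPKM (log2 difference 0.54, adjusted p = 0.130), and Ccnb2, a mitotic cyclin, had a log2 difference of 0.51 (adjusted p = 0.349). The list's median was 0.26, and it was 0.12 without WT replicate 1 and 0.16 without Asic3-null replicate 2.

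All 19 pocket protein and E2F genes were tested, and E2f2 was called lower. E2f2, an activator of S phase genes, stood at 13.8, 10.4 and 12.4 against 31.5, 22.5 and 25.8 RPKM, without overlap (log2 difference -1.06, SE 0.18, limma adjusted p = 0.0156, called in 11 of 14 alternatives, the exceptions being without Asic3-null replicate 2, Asic3-null replicate 3 or WT replicate 1). Rb1, the retinoblastoma protein that CDK4 and CDK6 inactivate, was at 5.23, 4.90 and 6.91 against 10.7, 10.3 and 10.1 RPKM (log2 difference -0.78, adjusted p = 0.0616, and called with limma-voom, adjusted p = 0.0216). Rbl1, its relative p107, was at 19.7, 18.1 and 21.2 against 12.4, 16.6 and 15.7 RPKM (log2 difference 0.39, adjusted p = 0.298). The list's median was 0.21, with 15 genes above 0 and 4 below.

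Of 26 quiescence genes, Cdkn1b and Cdkn1c included, 18 were tested and none was called by limma, with 4 lower and 2 higher at an unadjusted p under 0.05 and a median of -0.29, which was -0.16 without Asic3-null replicate 2. The 2 higher were Egr1 (log2 difference 1.14, adjusted p = 0.273) and Klf2 (0.91, adjusted p = 0.201), both with overlap. Btg1, an antiproliferative relative of Btg2, was at 25.1, 18.5 and 24.2 against 33.8, 41.0 and 37.7 RPKM, without overlap (log2 difference -0.71, adjusted p = 0.0522, and called in 4 of 14 alternatives). Cited2, a transcriptional cofactor of stem cell maintenance, was at 188.2, 131.1 and 155.5 against 181.1, 328.9 and 313.0 RPKM (log2 difference -0.76, adjusted p = 0.148). WT replicate 1 lay within the range of the Asic3-null-labelled libraries for Cited2, as it did for Cdkn1a and Cdkn2a, and without that library Cited2 and Btg2 were called lower (lowest adjusted p over the alternatives 0.0280 and 0.0425).

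All 25 proliferation markers were tested and none was called by limma, with 4 higher and 0 lower at an unadjusted p under 0.05. Of them 24 had a log2 difference above 0, where 6566 of the 12037 tested genes did, and the median was 0.32. The largest was Aurkb, a mitotic kinase, at 115.6, 103.6 and 98.1 against 54.7, 74.3 and 83.1 RPKM (log2 difference 0.59, adjusted p = 0.113). Rrm1, a subunit of ribonucleotide reductase, was at 96.2, 105.1 and 87.7 against 43.9, 74.0 and 87.2 RPKM (log2 difference 0.54, adjusted p = 0.298), and Tk1, thymidine kinase, had a log2 difference of 0.51 (adjusted p = 0.232). WT replicate 1 was the lowest of the 6 libraries for 23 of the 25 markers (92.0%), where it was so for 19.7% of all tested genes. Without that library 17 of the 25 were above 0 and the median was 0.14. Over the 183 listed pathway genes that are not members, 166 were tested, 2 were called and the median was 0.13.

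**Figure D4:**
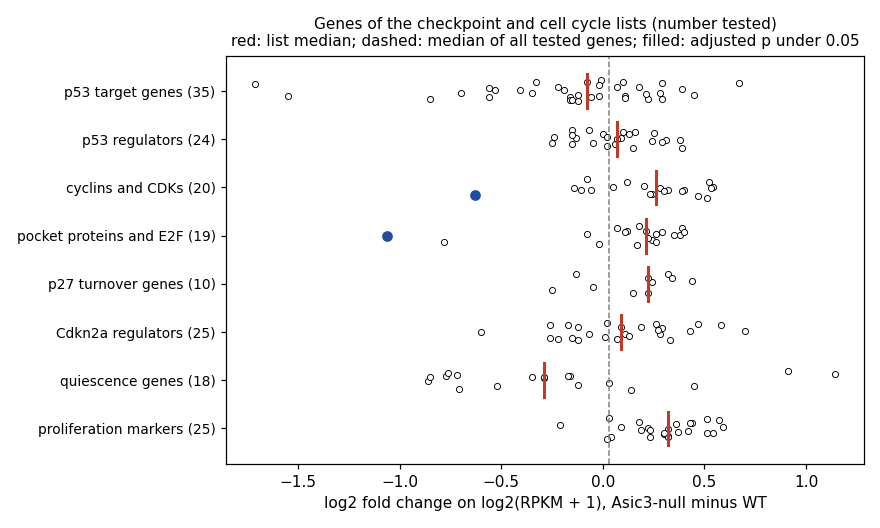
Log2 difference, Asic3-null-labelled libraries minus WT, of every tested gene of the 8 pathway lists, 1 row per list, with called genes filled in blue and the list median as a red line. The medians run from -0.29 (quiescence genes) to 0.32 (proliferation markers, 0.14 without WT replicate 1), and the called genes are Ccnd3 and E2f2.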

How the data were processed

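Samples were grouped and numbered as labelled. The authors deposited 1 table of RPKM per gene and library, made per their processing notes with CASAVA 1.8.2 and TopHat2 2.0.12 on GRCm38 from libraries that do not mark strand; the counting tool and annotation are not given in the sources used here. Reads were inferred from the RPKM values, and all 16825 genes above 0 gave whole reads within 0.001. RefSeq gave 25275 symbols.

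The 12037 genes whose RPKM averaged 1 or more were tested on log2(RPKM + 1), a scale that understates changes of low genes, with limma 3.58.1 in R 4.3.3 (intensity trend, group as the only term, Benjamini-Hochberg, threshold 0.05). Means were also compared by exact permutation over 20 splits. The step was also run on simulated data, and the outcome is not given here as support for the calls. The members and lists were chosen with earlier results of these data known. Named are the members, Asic3, Bmi1, Mtap, called list genes, the 3 with the lowest p of each pathway list and the 3 genes most like each of the 2 members with the lowest p. Xist, Itgam, Meis1, Hoxa9, Kit, Cbx7 and the genes of the closing observations were picked with their values in view. The 14 alternatives were another pseudocount, filters, scalings, no trend, limma-voom on inferred reads, a replicate block and each library left out. No set test was run. Some marker genes are not reported here.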

Additional observations from a re-analysis of the deposited data

How the results depend on the processing

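Cdkn2d kept its direction in all 14 alternatives. Its log2 difference of -0.86 was no longer called with no filter on low values (-0.86, limma adjusted p = 0.0735) or with no intensity trend (-0.86, adjusted p = 0.0925), which leaves 0 members called under each, and with single libraries left out it ranged from -1.03 to -0.72 with 0 to 1 members called. The direction turned for Cdkn2c to -0.02 without WT replicate 3 and for Trp53 to 0.01 without Asic3-null replicate 1, and the cause was not tested. With single libraries left out Cdkn2c ranged from -0.02 to 0.24 and Trp53 from -0.36 to 0.01. Asic3 remained at 1.81 with no filter (adjusted p = 0.0623) and ranged from 1.54 to 2.07 with single libraries left out, not called without Asic3-null replicate 1 or 3 or WT replicate 1 or 3. The 403 genes called in all became 203 to 293 with 1 library fewer. The 2 called pathway genes became 1 with no filter, 1 with no intensity trend, 4 with quantile normalization, 7 with limma-voom on inferred reads and 0 to 5 with single libraries left out. The median of all tested genes stayed between 0.01 and 0.058 on the log2 scale.

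The deviations of same-numbered libraries correlated at 0.059, -0.059 and -0.123, and those of differently numbered libraries at -0.073 to 0.141. From 3 libraries per group, such values cannot show whether the replicate numbers pair the libraries. With the number as a replicate block 246 genes were called, Cdkn2d among them (adjusted p = 0.0466), Asic3 was at 1.81 (adjusted p = 0.0598), Ccnd3 was no longer called, and Klf2 was called higher. Depth limits Cdkn2a, Cdkn1c and Cdkn2b, which rest on at most 46 reads per group.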

Other observations

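The following 4 list genes were picked after their values were seen, because Asic3-null replicate 1 differed from the other libraries of its label, and they stand for no larger group. Ddit4, an inhibitor of mTORC1 and a p53 target, was at 80.7, 9.97 and 14.2 RPKM in the Asic3-null-labelled libraries and at 79.6, 58.8 and 97.8 RPKM in those labelled WT. Txnip, an arrestin of glucose uptake, was at 203.7, 75.8 and 88.5 against 180.0, 221.7 and 153.7 RPKM. Both were low in replicates 2 and 3 of the Asic3-null label only. The immediate early gene Egr1 was at 46.5, 171.0 and 185.9 against 45.5, 66.7 and 44.7 RPKM, and Klf2, a factor of T cell quiescence, at 503.5, 1102.5 and 1021.2 against 309.8, 490.7 and 562.4 RPKM. Both were high in those same libraries. None of the 4 was called by limma in the comparison of all 6 libraries with group as the only term (Klf2 was called with the replicate number as a block), and calls made without Asic3-null replicate 1 are not given as support, since that library chose the genes.

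Of the 25 proliferation markers, Rrm2 was the 1 with a log2 difference below 0 (-0.21), and Cdt1 (0.02), Cdc6 (0.03) and Mki67 (0.04) were the next lowest. Mki67 was at 44.0, 18.1 and 31.2 RPKM with the Asic3-null label and at 23.7, 40.7 and 23.7 RPKM with the WT label (log2 difference 0.04, limma adjusted p = 0.971).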
